A study of Mus musculus with 8 samples.

Results

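The Fc gamma receptor genes of the mouse were followed in the bone marrow (BM) of a mouse model of leukemia: Fcgr1, Fcgr2b, Fcgr3 and Fcgr4, which encode receptors for immunoglobulin G (IgG), and Fcer1g, which encodes the signaling chain that the activating receptors share. The family is defined by the names of these 5 genes and not by a measured value, although it was chosen with earlier results of these data known. All 5 were among the 13305 genes of the deposited count table, so every member was tested. RNA of whole BM was sequenced as 1 library per mouse from 8 C57BL/6N mice of a genetic model of acute myeloid leukemia (AML). All of them carried Mx1-Cre, a heterozygous deletion of Dnmt3a (Dnmt3a+/-) and the internal tandem duplication on both Flt3 alleles (Flt3ITD/ITD), and they differed in the adaptor gene Gab2. The 3 AML WT mice were Gab2+/+, the 2 AML HET mice Gab2+/- and the 3 AML KO mice Gab2-/-. Flt3-ITD was a germline knock-in present in all cells, Dnmt3a was deleted where Mx1-Cre had been active, and the Gab2 null allele carries a neomycin cassette in place of several coding exons. The age of the sequenced mice is not given in the sources used here, and every mouse had the leukemic alleles, so levels in healthy BM were not analysed here.

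Fc gamma receptors link antibodies to the cells of innate immunity. Binding of IgG-coated particles clusters the activating receptors, and Src family kinases then phosphorylate the 2 tyrosines of the immunoreceptor tyrosine-based activation motif (ITAM) of the Fcer1g chain, which recruits the kinase Syk and starts phagocytosis and cytokine release. The inhibitory receptor Fcgr2b carries the opposing motif, the ITIM, which recruits the inositol phosphatase SHIP1. Monocytes, macrophages and neutrophils carry most of these receptors, Fcgr2b is the Fc gamma receptor of B cells, and Gab2 is itself an adaptor in the signaling of Fc receptors.

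The coding bases of the motifs known to carry the signals of Fcer1g and Fcgr2b are shown. They were read from GENCODE M21 transcripts on GRCm38, 5′ to 3′ on the coding strand, with the tyrosine codons in capitals. The ITAM of Fcer1g spans exons 4 and 5 (chr1:171229889-171230072, minus strand, codons 65 to 79 of 86), and the ITIM of Fcgr2b lies in exon 8 (chr1:170961071-170961088, minus strand, codons 317 to 322 of 340). The ITIM pattern (isoleucine, valine, leucine or serine, any residue, tyrosine, any 2 residues, then isoleucine, valine or leucine) is not particular to Fcgr2b by its letters: it also matched at 3 places in Fcgr1 and at 1 each in Fcgr4 and Fcer1g.
Fcer1g ITAM: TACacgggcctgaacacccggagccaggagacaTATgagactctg
Fcgr2b ITIM: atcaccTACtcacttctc

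Fcgr1 lies alone on chromosome 3 (chr3:96282909-96293969, minus strand). The other members lie within 275.7 kb of chromosome 1: Fcgr2b (chr1:170958617-170976547, minus strand), Fcgr4 (chr1:171018920-171029761, plus strand), Fcgr3 (chr1:171051174-171064935, minus strand) and Fcer1g (chr1:171229572-171234365, minus strand). Fcgr2b and Fcgr3 are the most alike of the receptors, with 85.2% identical bases over 793 aligned coding bases, against 62.7% to 66.4% for the other 5 pairs of receptors. The longest run of coding bases that they share is 129 bases long. It lies across exons 3 and 4 of both genes, at chr1:170966674-170968081 in Fcgr2b and chr1:171054167-171057792 in Fcgr3, and a read that lies wholly within it matches both genes equally.
Fcgr2b and Fcgr3 shared run: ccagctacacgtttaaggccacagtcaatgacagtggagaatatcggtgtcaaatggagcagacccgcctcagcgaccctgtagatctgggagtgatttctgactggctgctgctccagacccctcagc
Of the 1733 distinct 50-base windows in the transcripts of Fcgr3, 9.58% were also found in another gene, in each case Fcgr2b. For Fcgr2b this was 4.38% of 5685 windows, with Fcgr3 among several other genes, and for Fcgr1, Fcgr4 and Fcer1g it was 0%. With windows of 100 bases the share was 2.54% for Fcgr3 and 1.4% for Fcgr2b. How the counting treated reads that match both genes is not given in the sources used here. The counts of Fcgr2b and Fcgr3 are therefore uncertain by an amount that was not measured, since shares of windows are not shares of reads. The antisense gene Gm38204, which is not in the table, overlaps Fcgr2b (chr1:170973373-170977746), and the strand setting of the counting is not given either.

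Totals ranged from 28009258 to 39266815 counts per library (median 32049876.5), and the 5 members together took 0.0752% to 0.102% of them. Levels are given as CPM, counts scaled to library sizes that were adjusted with the trimmed-mean (TMM) method. Gab2, the targeted gene, had 61.6 to 93.9 CPM in AML WT, 50.8 to 55.8 CPM in AML HET and 35.0 to 47.2 CPM in AML KO mice (AML KO against AML WT, log2 fold change -0.87, adjusted p = 0.042, edgeR). Reads therefore remained in AML KO mice, and whether they lie outside the replaced exons cannot be read from a count per gene. Between AML KO and AML WT BM, 278 genes (2.09% of those tested) passed edgeR's quasi-likelihood test at an adjusted p under 0.05 (Benjamini-Hochberg method), and the median log2 fold change over the whole table was -0.02. The labels name mice but give no batch.

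Fcgr1, the high-affinity IgG receptor, was the member with the greatest difference between genotypes. Its level was 46.5, 39.8 and 80.5 CPM in the 3 AML WT mice, 67.1 and 41.4 CPM in the 2 AML HET mice, and 27.3, 27.6 and 22.8 CPM in the 3 AML KO mice. All 3 AML KO mice were lower than every AML WT and AML HET mouse and lay close together, whereas AML WT and AML HET mice overlapped. The mean was 55.6 ± 21.8 CPM (SD, n = 3) in AML WT and 25.9 ± 2.65 CPM (SD, n = 3) in AML KO BM, a 2.15-fold lower level. The log2 fold change was -1.10 (standard error 0.27, 95% interval -1.72 to -0.49) with an unadjusted p of 0.00261, and the adjusted p of 0.0829 from edgeR's quasi-likelihood test missed the threshold. DESeq2, run as an alternative, gave the same log2 fold change with an adjusted p of 0.0033. Much of the size of the difference came from 1 mouse: without AML WT replicate 3, which had the highest level, the log2 fold change was -0.74 (edgeR adjusted p = 0.142). The exact two-sided permutation test gave p = 0.1, the smallest that 3 mice against 3 allow. In bulk BM, fewer cells that express a gene and less RNA of it per cell cannot be told apart.

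AML HET mice were close to AML WT mice in mean Fcgr1 level but far apart from each other. They had a mean of 54.3 ± 18.2 CPM (SD, n = 2), and the AML HET against AML WT log2 fold change was -0.04 (95% interval -0.71 to 0.64, adjusted p = 0.996, edgeR). Between AML KO and AML HET BM it was -1.07 (standard error 0.30, 95% interval -1.74 to -0.40, unadjusted p = 0.0054, adjusted p = 0.636, edgeR), and without AML HET replicate 1 it was -0.68. These comparisons share mice and are not independent of each other.

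Fcgr2b, the only inhibitory receptor of the family, had 194.6, 194.1 and 259.1 CPM in AML WT mice, 192.3 and 193.9 CPM in AML HET mice, and 181.7, 173.7 and 150.4 CPM in AML KO mice. The groups did not overlap, with AML KO lowest and AML HET between, but 4 of the 5 AML WT and AML HET mice lay within 192.3 to 194.6 CPM. From AML WT to AML KO BM, the log2 fold change was -0.36 (standard error 0.14, 95% interval -0.68 to -0.04), with an unadjusted p of 0.0329 and an adjusted p of 0.254 from edgeR's quasi-likelihood test. Without AML WT replicate 3, the mouse that was also highest for Fcgr1, it was -0.20. Between AML HET and AML WT BM it was -0.16 (adjusted p = 0.990, edgeR), and between AML KO and AML HET BM -0.20 (adjusted p = 0.879, edgeR).

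Fcgr3, the low-affinity activating receptor and the close relative of Fcgr2b, had 225.3, 221.5 and 196.9 CPM in AML WT mice, 198.6 and 207.8 CPM in AML HET mice, and 193.6, 248.2 and 159.1 CPM in AML KO mice. The AML KO group held both the highest and the lowest mouse of all 8, so the groups overlapped. From AML WT to AML KO BM, the log2 fold change was -0.10 (95% interval -0.46 to 0.26, adjusted p = 0.745, edgeR). The interval includes 0, and differences of any size within its bounds remain compatible with these mice.

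Fcgr4, the activating receptor for IgG2 subclasses, was the least abundant member. Its level was 4.92, 3.32 and 8.57 CPM in AML WT mice, 8.62 and 3.35 CPM in AML HET mice, and 5.76, 6.59 and 3.92 CPM in AML KO mice, from 105 to 280 counts per library. The spread within AML WT and within AML HET was larger than any difference between group means. From AML WT to AML KO BM, the log2 fold change was -0.05 (standard error 0.42, 95% interval -1.0 to 0.90, adjusted p = 0.957, edgeR). Its 2 highest mice, AML HET replicate 1 and AML WT replicate 3, were also the 2 highest for Fcgr1.

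Fcer1g, the common chain, had 311.5, 419.6 and 478.4 CPM in AML WT mice, 448.9 and 494.3 CPM in AML HET mice, and 561.8, 438.3 and 397.8 CPM in AML KO mice. Its groups overlapped, and the AML HET and AML KO means of 471.6 and 466.0 CPM both lay above the AML WT mean of 403.2 CPM. From AML WT to AML KO BM, the log2 fold change was 0.21 (95% interval -0.20 to 0.62, adjusted p = 0.539, edgeR). The difference from AML WT in AML HET mice was of like size (log2 fold change 0.23, adjusted p = 0.990, edgeR).

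**Figure D1:**
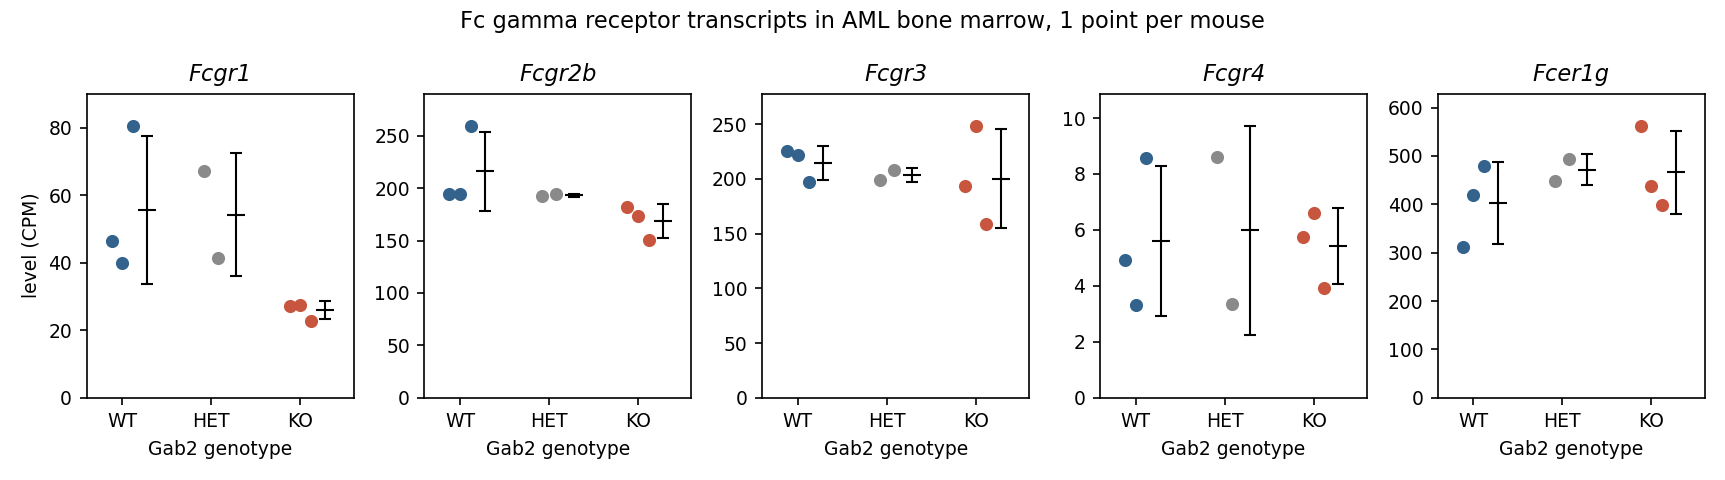
Level in CPM (vertical axes from 0) of each member by Gab2 genotype of the AML mice, with 1 point per mouse and a bar for the mean and SD of the group. The 3 AML KO mice lie under all other mice for Fcgr1 (22.8 to 27.6 CPM) and Fcgr2b (150.4 to 181.7 CPM), and the genotypes overlap for Fcgr3, Fcgr4 and Fcer1g.

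Across the family, 0 of 5 members passed the adjusted threshold in edgeR between AML KO and AML WT BM, where 2.09% of all genes did. At an unadjusted p under 0.05 there were 2 members, Fcgr1 and Fcgr2b, both lower, beside 7.88% of all genes that were lower at that p. DESeq2 called 1 member, Fcgr1, and 5.49% of all genes, and limma-voom called 0 members and 266 of all 13305 genes. In the same 2 members every AML KO mouse was lower than every AML WT mouse, which was true of 9.83% of all genes. Between AML HET and AML WT BM 0 of 5 members passed in edgeR or DESeq2 and 0 had an unadjusted p under 0.05 in edgeR, beside 0.0225%, 0.443% and 2.47% of all genes, and AML HET mice were all lower for Fcgr2b alone (8.61% of all genes). Between AML KO and AML HET BM 0 of 5 members passed in edgeR or DESeq2 (0.0% and 0.579% of all genes) and 1, Fcgr1, was lower at an unadjusted p under 0.05 in edgeR (2.34%). The AML KO mice were all lower than both AML HET mice for Fcgr1 and Fcgr2b (11.0% of all genes).

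**Figure D2:**
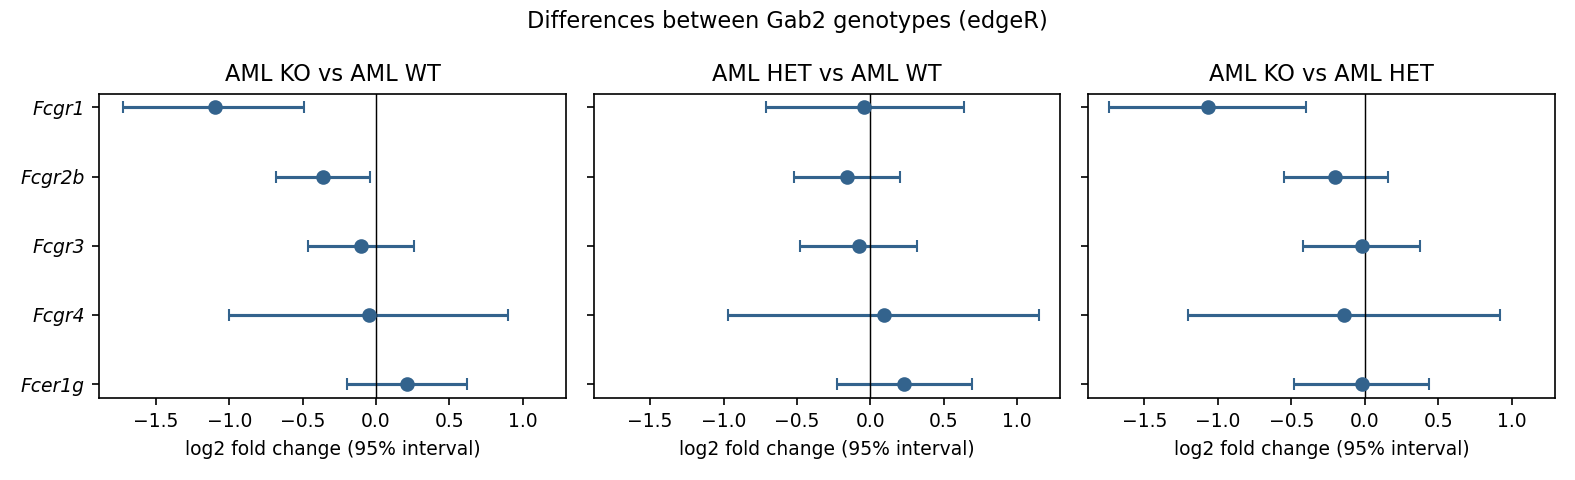
Log2 fold change of each member (points) with its 95% interval (bars) from edgeR in the 3 comparisons, where values under 0 are lower in the first group named. The intervals of Fcgr1 leave out 0 in both comparisons of AML KO mice (-1.72 to -0.49 against AML WT), that of Fcgr2b does so against AML WT alone, and those of Fcgr3, Fcgr4 and Fcer1g include 0.

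Levels of different genes were compared per kb of exons. In AML WT BM, Fcer1g was highest with 461.3 ± 96.9 CPM per kb (SD, n = 3), followed by Fcgr3 with 123.6 ± 8.89, Fcgr2b with 37.3 ± 6.45, Fcgr1 with 21.5 ± 8.42 and Fcgr4 with 4.46 ± 2.14. The order was the same in AML HET and AML KO BM, and in each genotype every mouse's value for one gene lay above every mouse's value for the next gene in the order. Transcripts of the shared chain were thus more abundant per length than those of each receptor, and Fcgr3 was the most abundant receptor by this length. Mean CPM of Fcgr2b and Fcgr3 was alike in AML WT BM (215.9 and 214.6), so their order there rests on the length taken for each gene. Their coding lengths of 1023 and 804 bases differ less, and the order by these was not tested. With the length of the longest transcript in place of all exons, the order was the same, but the distances between genes differed, and Fcgr2b lay at 60.9 instead of 37.3 CPM per kb in AML WT BM.

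**Figure D3:**
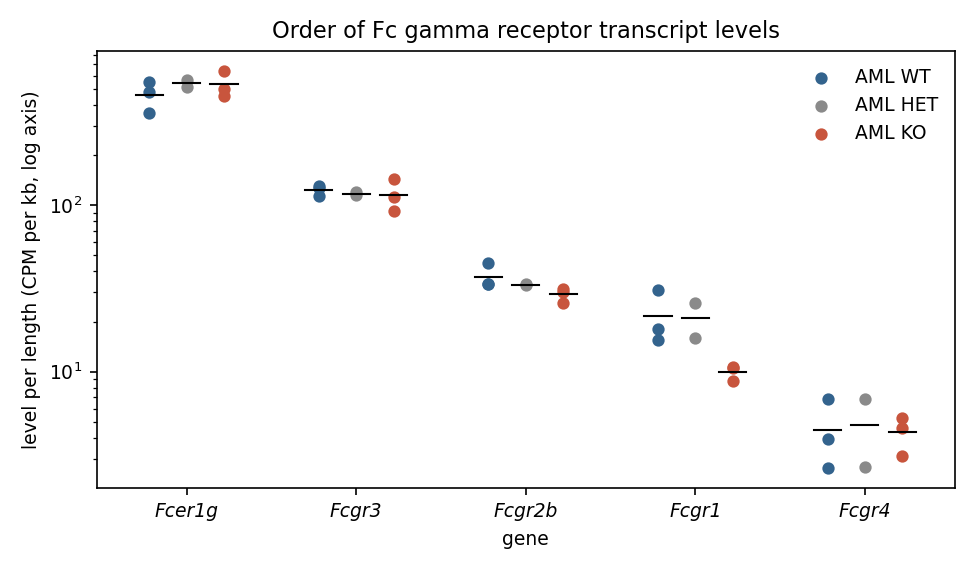
Level per length in CPM per kb of exons (log axis) of the members, ordered from highest to lowest, with 1 point per mouse colored by genotype and a line at the mean of the genotype. Fcer1g is highest and Fcgr4 lowest in every genotype, and Fcgr1 moves from a mean of 21.5 CPM per kb in AML WT to 10.0 CPM per kb in AML KO BM.

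Ratios of counts within a library do not depend on the scaling between libraries. The ratio of Fcgr1 to Fcgr2b counts was 0.239, 0.205 and 0.311 in AML WT mice, 0.349 and 0.214 in AML HET mice, and 0.150, 0.159 and 0.152 in AML KO mice. All AML KO mice were thus lower for Fcgr1 relative to its inhibitory counterpart, and they differed from each other by less than any other group. Relative to the shared chain, Fcgr1 was 0.149, 0.0948 and 0.168 in AML WT mice, 0.149 and 0.0838 in AML HET mice, and 0.0486, 0.0629 and 0.0574 in AML KO mice. Relative to Fcgr3 the AML KO mice lay at 0.111 to 0.144, under the AML WT mice at 0.180 to 0.409. The ratio of Fcgr2b to Fcer1g was 0.463 to 0.625 in AML WT, 0.392 to 0.428 in AML HET and 0.323 to 0.396 in AML KO mice, so that mice lacking 1 or both Gab2 alleles lay under AML WT mice. The ratios with Fcgr1 share its counts and so restate the same difference. AML KO and AML WT mice overlapped in the ratios among Fcgr2b, Fcgr3 and Fcgr4 and in those of Fcgr3 and of Fcgr4 to Fcer1g.

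The ratio of counts of the activating to the inhibitory receptor genes did not separate the genotypes. It is not per length, so a value near 1 does not mean like levels per kb. The counts of Fcgr1, Fcgr3 and Fcgr4 together were 1.42, 1.36 and 1.10 times those of Fcgr2b in AML WT mice, 1.43 and 1.30 times in AML HET mice, and 1.25, 1.63 and 1.24 times in AML KO mice. The groups overlapped, and the sum is mostly Fcgr3. Against genes that mark myeloid cells, chosen after their values were seen, the difference of Fcgr1 depended on the reference. Relative to Tyrobp, the chain DAP12 of myeloid cells, Fcgr1 was lower in all AML KO mice (0.0315 to 0.0402) than in AML WT mice (0.0508 to 0.112). Relative to Csf1r, the receptor of monocytes for macrophage colony-stimulating factor, AML KO mice (0.0461 to 0.0750) overlapped AML WT mice (0.0710 to 0.149).

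**Figure D4:**
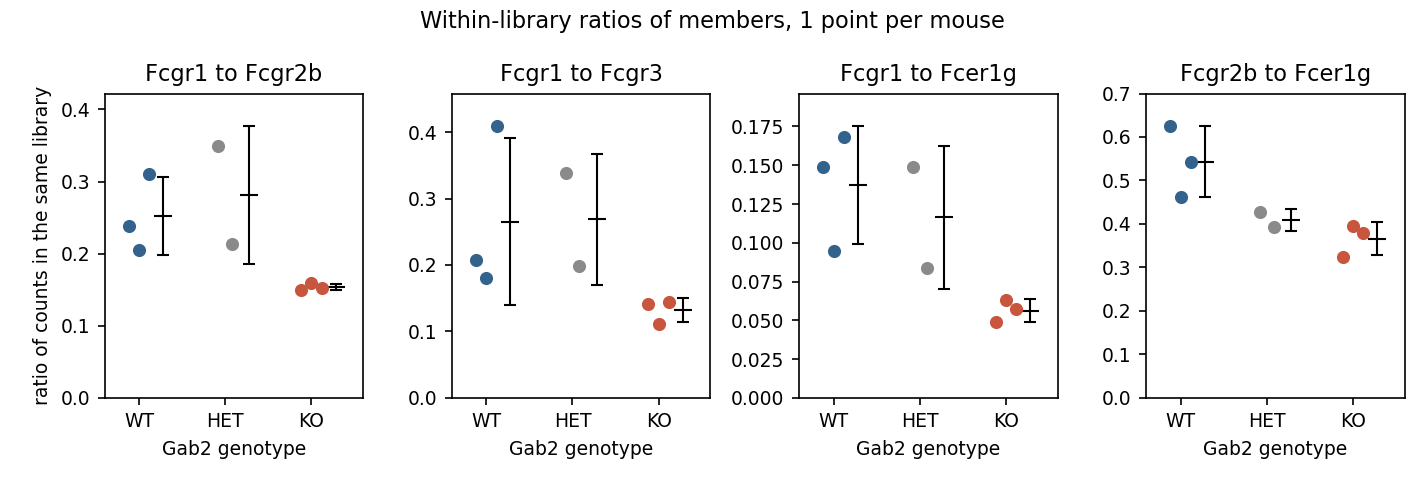
Ratio of the counts of 2 members within each library (vertical axes from 0), with 1 point per mouse and a bar for the mean and SD of each genotype. The 4 ratios shown, of which 3 share the counts of Fcgr1, are ones in which AML KO mice lie under AML WT mice, with AML KO mice from 0.150 to 0.159 for Fcgr1 to Fcgr2b.

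Across the 8 mice, the log2 CPM of Fcgr1 and Fcgr2b had a Pearson r of 0.86 (0.757 without the 2 mice farthest from the median of Fcgr1), and the other 9 pairs of members had r between -0.17 and 0.52. Among these, some values moved much when mice were left out: without the 2 mice farthest from the median, r went from -0.17 to -0.832 for Fcgr3 and Fcer1g and from 0.44 to -0.452 for Fcgr2b and Fcgr4. These values describe libraries of 3 genotypes that share the differences given above. Among 12682 genes with a mean of at least 1 CPM, those most like Fcgr1 were Tlr11 (r = 0.978), a Toll-like receptor, Dpp4 (r = 0.976), a cell surface peptidase, and Phf11b (r = 0.962). With the 2 mice farthest from the median of Fcgr1 left out, r was 0.947, 0.966 and 0.911 over 6 mice. Phf11b had 13.3, 12.2 and 44.8 CPM in AML WT mice, 38.1 and 15.0 CPM in AML HET mice, and 8.57, 10.7 and 6.54 CPM in AML KO mice, so AML WT replicate 3 and AML HET replicate 1 stood above the rest as they did for Fcgr1. Siglec1, the macrophage lectin, was highest in the same 2 mice (21.6 and 14.9 CPM) and had 1.14 to 3.17 CPM in AML KO mice (log2 fold change -2.18, adjusted p = 0.169, edgeR, and -1.10 without AML WT replicate 3). It is 1 of 14 macrophage markers in the table, of which 9 lay above 0.

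The genes most like Fcgr2b were Clptm1l (r = 0.953), Nod2 (r = 0.952), a sensor of bacterial peptidoglycan, and Slamf9 (r = 0.952). For Nod2 and Slamf9 r dropped to 0.725 and 0.668 without the 2 mice farthest from the median of Fcgr2b. Fcgr3 was most like Ctsb (r = 0.962), which encodes the lysosomal protease cathepsin B, and Fcgr4 most like Laptm4a (r = 0.947). Fcer1g was most like Brk1 and Polr2c (both r = 0.980).

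The 250 bases before the start of Fcgr1 and Fcgr4 are shown because these receptors were highest in the same 2 mice. Over the 8 mice the 2 genes were not closely alike (r = 0.52, and 0.176 without the 2 mice farthest from the median of Fcgr1). The bases are from RefSeq (GRCm38.p6), and entries were found for all 5 members. Fcgr1 (chr3:96293970-96294219, minus strand) holds TTCNNNGAA, the letters of a STAT binding motif, 109 bases before the start, and GAGGAA, the core of a PU.1 motif, on the opposite strand 55 bases before the start. Fcgr4 (chr1:171018676-171018925, plus strand) holds the letters of an interferon response element (GAAA, any 2 bases and GAAA), 73 bases before the start, and GAGGAA on the opposite strand 22 bases before the start. The matches are in capitals.
Fcgr1 upstream: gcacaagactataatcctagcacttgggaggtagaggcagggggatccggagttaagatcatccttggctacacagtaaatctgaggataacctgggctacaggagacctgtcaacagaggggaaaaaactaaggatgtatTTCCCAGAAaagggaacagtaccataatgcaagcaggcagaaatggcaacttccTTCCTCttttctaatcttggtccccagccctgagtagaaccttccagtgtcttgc
Fcgr4 upstream: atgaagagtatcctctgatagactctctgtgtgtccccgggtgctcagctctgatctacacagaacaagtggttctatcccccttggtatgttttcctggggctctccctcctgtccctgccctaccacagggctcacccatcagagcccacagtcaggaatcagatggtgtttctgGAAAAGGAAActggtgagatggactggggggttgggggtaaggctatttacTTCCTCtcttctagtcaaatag
Both strands were searched for these motifs and for TTGCGCAA, a C/EBP motif. Of 32851 mouse promoter windows of this length, 7.02% hold TTCNNNGAA, 23.3% GAGGAA, 2.98% the interferon response element and 0.164% TTGCGCAA. Fcgr3 holds GAGGAA as well, and the windows of Fcgr2b and Fcer1g hold none of the 4 motifs. A match of letters is no evidence of binding.

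The genes that work with the receptors were read from lists, with the same test, in which 1.77% of all genes rose and 0.323% fell between AML WT and AML KO BM. Of 12 other Fc receptor genes, 6 were in the table. Ms4a2, the beta chain of the mast cell IgE receptor, which signals with Fcer1g, rose from 1.00 ± 0.0599 CPM (SD, n = 3) in AML WT to 5.63 ± 1.79 (SD, n = 3) in AML KO BM (log2 fold change 2.49, adjusted p = 0.00988, edgeR), and the other 5, among them the neonatal receptor Fcgrt, did not pass. The median of the 6 was -0.25 on the log2 scale. Mast cell and basophil markers rose in the same mice: 5 of 9 rose, of which Ms4a2 is 1, Il1rl1 fell, and their summed level was 165.7 to 186.6 CPM in AML WT and 317.2 to 450.2 CPM in AML KO mice, and their part in the result of Ms4a2 was not tested.

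Of 10 receptors that pair with Fcer1g, 6 were in the table, of which 3 lay under 0. In edgeR 1 passed, and DESeq2 called 2 (5.49% of all genes). Gp6, the collagen receptor of platelets, rose from 0.151 ± 0.0256 CPM (SD, n = 3) to 1.18 ± 0.371 (SD, n = 3) (log2 fold change 2.94, adjusted p = 0.0115, edgeR). Gp6 had 0.122 to 0.172 CPM in the AML WT mice, a few reads per library, since 3 counts were 0.0738 to 0.0948 CPM there. It is also 1 of the 19 megakaryocyte and platelet markers in the table, of which 16 rose, with a summed level of 338.3 to 374.5 CPM in AML WT and 683.4 to 915.7 CPM in AML KO mice. Of 3 ITAM adaptors and relatives, 0 passed in edgeR and 1, Hcst, had an unadjusted p under 0.05 and was called by DESeq2. Tyrobp had 700.2 ± 91.7 CPM (SD, n = 3) in AML WT and 729.6 ± 127.2 (SD, n = 3) in AML KO BM, and Hcst, the chain DAP10, had a log2 fold change of 1.07 (adjusted p = 0.0921, edgeR).

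Of the 31 genes that carry the activating signal, such as Src family kinases, Syk and its substrates, all were in the table, and Gab2 itself was the only one to change in edgeR. The median of the 31 was -0.09 on the log2 scale. Of 17 genes of the inhibitory signal, 16 were in the table and 2 rose. Inppl1, the inositol phosphatase SHIP2, rose from 42.0 ± 2.76 CPM (SD, n = 3) to 63.7 ± 5.73 (SD, n = 3) (log2 fold change 0.60, adjusted p = 0.0427, edgeR), with 66.2 ± 6.35 CPM (SD, n = 2) in AML HET BM. Siglece, an ITIM-bearing lectin, rose by 0.80 on the log2 scale (adjusted p = 0.0479, edgeR). Both calls were lost in each of the 8 fits without 1 mouse, with adjusted p up to 0.170 and 0.150.

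Of 13 transcription factors of myeloid cells, Cebpe and Gfi1, which act in granulocytes, rose (log2 fold change 1.76 and 0.69, adjusted p = 0.00898 and 0.0268, edgeR). The other 11, among them Spi1, which encodes PU.1, did not pass. Of 10 genes of IgG and pentraxin ligands, 4 were in the table. The IgG heavy chain genes of the list (Ighg1, Ighg2b, Ighg2c and Ighg3) were not, so no call is of an IgG heavy chain. Jchain, the joining chain of polymeric antibodies, rose by 2.85 on the log2 scale (adjusted p = 0.0172, edgeR). Its level was low, at 0.27 to 0.459 CPM in AML WT and 1.13 to 3.62 CPM in AML KO mice. Of 15 complement and other phagocytic receptors, 13 were in the table: C5ar1, the C5a receptor, rose (1.90, adjusted p = 0.00988, edgeR), and Mrc1, the mannose receptor, and Itgax, the integrin CD11c, fell (-0.87 and -1.10, adjusted p = 0.0156 and 0.0457, edgeR). Their median was -0.40 on the log2 scale, 10 of 13 lay under 0, and DESeq2 called 4 of the 13 (5.49% of all genes). These 8 lists have 92 entries in the table. For AML KO against AML WT mice, edgeR called 11 of them (2.09% of all genes) and DESeq2 16 (5.49%). Both counts include Gab2, the targeted gene, whose loss was set by the design. For AML HET against AML WT mice, edgeR called 0 (0.0225%) and DESeq2 2 (0.443%). For AML KO against AML HET mice, edgeR called 0 (0.0%) and DESeq2 3 (0.579%). At an unadjusted p under 0.05 in edgeR, in either direction, there were 7 entries for AML HET against AML WT mice (2.47% of all genes). For AML KO mice there were 26 entries against AML WT and 14 against AML HET mice. The 7 and the 26 include Gab2. The share of all genes in both directions is not given for the 26 and 14 entries, so they cannot be weighed against it. Genes that were lower made up 7.88% and 2.34% of all genes in these comparisons. The call of Cebpe held in all 8 fits without 1 mouse. Those of Ms4a2, Gp6 and C5ar1 were lost without AML WT replicate 2 (adjusted p up to 0.0676), those of Mrc1 without that mouse or AML KO replicate 1 or 3 (up to 0.0635), and those of Jchain without AML WT replicate 1 or 2 or AML KO replicate 1 or 3 (up to 0.0883). Gfi1 kept its call in 1 of the 8 fits, without AML KO replicate 2, and Gab2 and Itgax in 2 of 8 (adjusted p up to 0.116, 0.159 and 0.174). With the mouse numbers as an added term (the replicate block), none of the calls of these lists held, that of Cebpe included (adjusted p = 0.071, edgeR).

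**Figure D5:**
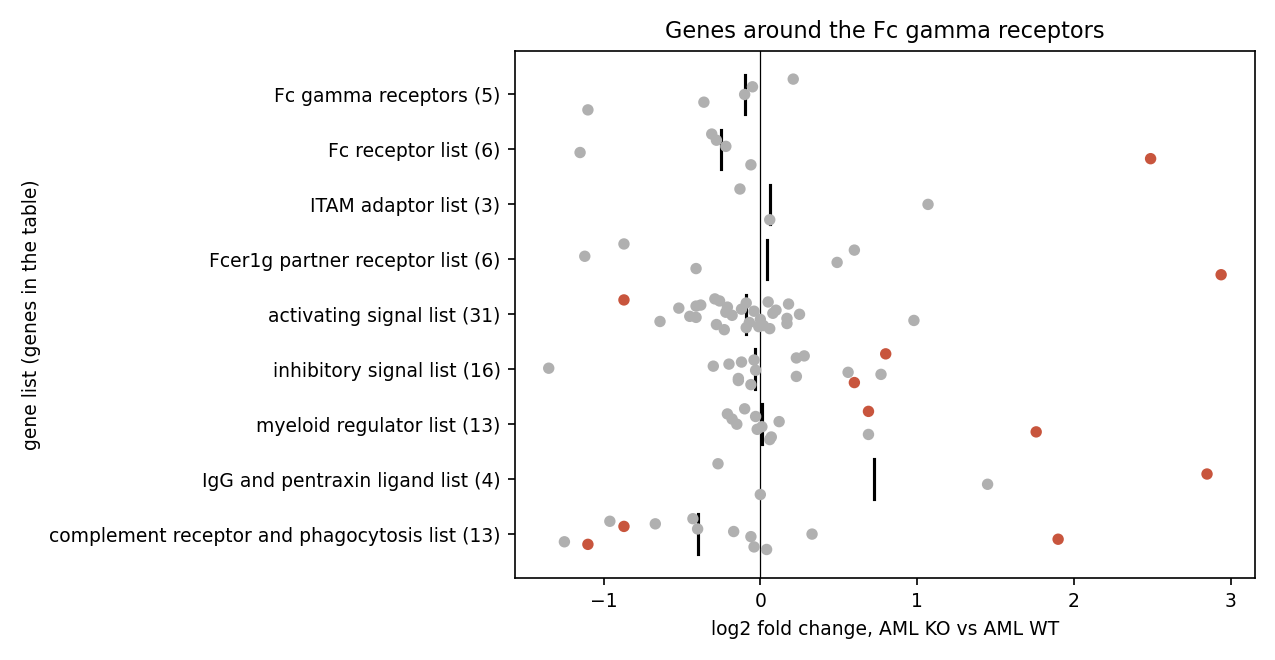
Difference between AML KO and AML WT mice (log2 fold change, horizontal axis) of every listed gene for the 5 members and the 8 lists around them (1 point per gene, spread vertically for visibility), with a bar at the list's median. Genes with an adjusted p under 0.05 in edgeR are red and others grey, and Gab2 is the only red point of the activating signal list.

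Marker genes of the cell types of BM are given beside the levels of Fcgr1 and Fcgr2b, for AML KO against AML WT mice. Of 14 monocyte markers in the table, 0 passed in edgeR. At an unadjusted p under 0.05, 2 were lower and 1, S100a4, was higher (log2 fold change 1.22, adjusted p = 0.217, edgeR), and S100a4 was the 1 marker that DESeq2 called. In all, 11 lay under 0 with a median of -0.25, and their summed level was 6398 to 8910 CPM in AML WT, 6191 to 6219 in AML HET and 4565 to 7216 in AML KO mice. Of 10 dendritic cell markers, Itgax fell and 9 lay under 0 with a median of -0.96, and the sum was 1695 to 3582 CPM in AML WT, 1583 to 2052 in AML HET and 1044 to 1540 in AML KO mice. Most of this sum was Cd74, with means of 2098 CPM in AML WT and 905.2 CPM in AML KO BM, where the mean sums were 2619 and 1296 CPM. Mature neutrophil markers went the other way: 9 of 17 rose, among them S100a9 (2.35, adjusted p = 0.0479, edgeR) and Camp (2.72, adjusted p = 0.0208, edgeR), and their sum was 1555 to 5027 CPM in AML WT, 5750 to 6454 in AML HET and 10912 to 17657 in AML KO mice. The call of S100a9 held only without AML WT replicate 1 or 3, and that of Camp was lost without AML WT replicate 2 or AML KO replicate 1 or 3 (adjusted p up to 0.254 and 0.126). Of 14 macrophage markers Vcam1, Cd5l and Slc40a1 rose and Axl fell, 9 lay above 0 with a median of 0.24, and the sums were of 276.4 to 359.0 CPM in AML WT, 252.7 to 276.2 in AML HET and 191.2 to 321.3 in AML KO mice. Erythroid markers rose in 17 of 19 genes, from summed levels of 343.7 to 478.8 CPM in AML WT to 757.1 to 2406 in AML HET and 1664 to 5718 in AML KO mice. B cell markers, the cells in which Fcgr2b is the Fc gamma receptor, summed to 45.1 to 92.4 CPM in AML WT, 74.4 to 92.4 in AML HET and 65.4 to 98.3 in AML KO mice, and 0 of 11 passed in edgeR or DESeq2 (1 at an unadjusted p under 0.05 in edgeR). None of the markers in the table was at 0 throughout a genotype, and the part of these cells in the levels of the receptors was not tested.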

How the data were processed

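RNA of whole BM was sequenced by the authors, 1 library per mouse (3 AML WT, 2 AML HET, 3 AML KO). The submitters' processing notes name Trimmomatic 0.36, STAR 2.5.2b and mm10, and the counting tool, annotation and strand setting are not given in the sources used here. The authors deposited raw counts per gene, without normalization, for 13305 genes with at least 106 counts over the 8 mice. Of their Ensembl identifiers 13266 were matched to GENCODE M21 symbols and 39 were not.

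Counts were scaled with TMM and tested in R 4.3.3 with edgeR 4.0.16 (robust quasi-likelihood fit of all 8 mice, genotype as the only term, Benjamini-Hochberg adjustment over all genes, threshold 0.05). Standard errors were derived from the F statistic. The test was first checked on simulated counts. Exact permutation tests of CPM, two-sided, were run for each member. Likeness was Pearson's r of log2 CPM (prior count 2). Alternatives were DESeq2 1.42.0, limma-voom (limma 3.58.1), upper-quartile scaling, TMM without erythroid and megakaryocyte genes, low-count filters, the replicate block, AML WT and AML KO mice alone, Gab2 alleles as a number and each mouse left out in turn.

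The members and lists were chosen with earlier results of these data known. Genes named beside the members were the called genes of each list or else its 2 smallest p, the highest and most different markers and the 3 genes most like each member. Not every gene meeting this rule is reported, and Fcgrt, Spi1, Csf1r and the markers Axl, Vcam1, Cd5l, Slc40a1 and Il1rl1 were named after their values were seen. Whether same-numbered mice share a litter or batch is not stated, so mice were treated as unpaired. Deviations of same-numbered libraries from their group means correlated at -0.51 to 0.29. Such deviations sum to 0 within groups of 2 or 3 mice, so this check cannot exclude a pairing. How far counting error adds to the spread between mice was not measured. Figures were drawn with matplotlib 3.10.9.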

Additional observations from a re-analysis of the deposited data

How the results depend on the processing

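In the alternatives run on AML KO against AML WT BM, the log2 fold change of Fcgr1 stayed between -1.29 and -0.74, that of Fcgr2b between -0.44 and -0.20 and that of Fcer1g between 0.04 and 0.35, without a change of sign. DESeq2 was the one setting in which a member passed: it called 1 member, Fcgr1 (-1.10, adjusted p = 0.0033), and 730 genes in all. The replicate numbers were not taken to pair the mice: correlations of the deviations of same-numbered libraries from their group means were -0.51, -0.11 and -0.13 for AML WT and AML KO, 0.08 and 0.29 for AML WT and AML HET, and -0.14 and -0.04 for AML HET and AML KO. With the replicate block 19 genes in all were called, Fcgr1 had -1.03 (adjusted p = 0.233), and the called genes that the text names with values had adjusted p of 0.0584 (Ms4a2) to 0.202 (Itgax). The block turned the sign of Fcgr4 (0.06) against AML WT, of Fcgr1 in AML HET against AML WT (0.10) and of Fcgr3 in AML KO against AML HET (0.07), and limma-voom that of Fcgr4 (0.01). The cause was not tested.

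With each mouse left out in turn, 40 to 370 genes were called, the fewest without AML WT replicate 2. Signs turned for values near 0: Fcgr3 (-0.29 to 0.04), Fcgr4 (-0.31 to 0.39) and Tyrobp (-0.09 to 0.15) in AML KO against AML WT, Fcgr1 (-0.42 to 0.34), Fcgr2b (-0.23 to 0.00) and Fcgr4 (-0.74 to 0.62) in AML HET against AML WT, and Fcgr3 (-0.21 to 0.12), Fcgr4 (-0.67 to 0.69) and Fcer1g (-0.17 to 0.08) in AML KO against AML HET. Per kb of the longest transcript, AML WT levels were 60.9 for Fcgr2b, 159.3 for Fcgr3 and 590.3 CPM for Fcer1g. The 95% interval of Fcgr4 in AML KO mice runs from 0.5 to 1.87 times the AML WT level.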
